A study of Mus musculus with 30 samples.

Results

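The Arp2/3 complex genes are the 9 mouse genes that encode the subunits of the actin-related protein 2/3 complex: Actr2, Actr3, Arpc1a, Arpc1b, Arpc2, Arpc3, Arpc4, Arpc5 and Arpc5l. They were taken by name as the genes of the complex. All 9 were present among the 13904 genes with an expression value, and 8 of the 9 were present among the 5806 transcripts with a measured half-life. Actr2 was the member without a half-life. Actr2 and Arpc5l are the 2 members that the study placed in its list of leading NANOS2 target mRNAs, and the other 7 members are outside that list.

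NANOS2 is an RNA-binding protein of male germ cells that is required to keep spermatogonial stem cells (SSCs), the cells from which sperm production is renewed. The study put an epitope tag on the endogenous NANOS2 protein, mapped the RNAs bound to it by crosslinking, and measured mRNA levels and mRNA half-lives in SSC lines. The lines were derived from the testes of mice at postnatal day 7 and were grown on embryonic fibroblasts, which were depleted before RNA was extracted. Here 2 lines were compared, line 4 with 1 tagged allele (Nanos2 TAG/+) and line 5 with both alleles tagged (Nanos2 TAG/TAG). The study itself treated the mRNA-seq data of these 2 lines as biological replicates and averaged them.

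Both lines carry the tagged allele and both make NANOS2, so neither is a line without the protein, and each genotype is represented by 1 line. The mRNA level came from 1 total RNA-seq library per line, made after depletion of ribosomal RNA. It is given in FPKM (fragments per kilobase of transcript relative to a depth set for each library), a unit per length that allows genes to be compared. The labels name a different RNA extraction reagent for the 2 libraries, QIAzol for TAG/+ and Trizol for TAG/TAG. The half-life came from SLAM-seq, in which newly made RNA takes up 4-thiouridine, the label is chased with uridine, and labelled RNA that remains is read as T-to-C conversions in 3′ end sequencing. For each line 12 SLAM-seq libraries were made, 2 at each of 6 chase times (0, 30, 60, 120, 540 and 1440 min). The study describes 2 biological replicates, each of 2 technical replicates that were merged before the fit. Read with the labels, the 2 lines are those biological replicates, and the 2 libraries per chase time are technical. In each line 1 half-life in minutes was fitted per transcript, without an error. With 1 value per line, no difference between the lines has a replicate check, and genotype, line and library cannot be told apart. In these bulk samples, fewer cells of a type and less RNA per cell cannot be told apart either.

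The Arp2/3 complex starts new actin filaments as branches on the side of existing ones, and so builds the branched networks that drive cell protrusion and the movement of membranes. Actr2 and Actr3 encode ARP2 and ARP3, the actin-like pair that forms the first subunits of the new branch. Arpc2 and Arpc4 encode the structural core that holds this pair and binds the mother filament, and Arpc3 encodes a subunit beside ARP3. Arpc1a and Arpc1b encode alternative forms of the WD-repeat subunit, and Arpc5 and Arpc5l encode alternative forms of the smallest subunit, so a single complex holds 1 form of each. The complex is inactive until nucleation-promoting factors such as the WASP and WAVE proteins bind it.

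NANOS2 binds mostly in 3′ untranslated regions (3′ UTRs), and the study derived a consensus motif from its crosslinking data. The motif has 4 spellings. With G at the third base these are AUGAAAU or, with U at the sixth base, AUGAAUU. With U at the third base they are AUUAAAU or, with U at the sixth base, AUUAAUU. They were searched on the sense strand in the 3′ UTR of the principal transcript of each member (GENCODE M21, build GRCm38). Each of these 3′ UTRs lies wholly in the last exon. The search found 4 matches, 3 in Actr2 and 1 in Arpc5. These stretches are shown because they are the only places in the searched 3′ UTRs where the letters of the consensus occur. The 3′ UTRs of other transcripts of the members were not searched. Each is written 5′ to 3′ as RNA of the gene's strand, and the capitals mark the match, with 10 bases on each side.
Actr2, first match: uuuacuaaugAUGAAUUugaaagaaug
Actr2, second match: auuaguuuauAUGAAAUcagcagcaaa
Actr2, last match: aggugaaauaAUGAAUUuaguaauuug
Arpc5, single match: cagccucuggAUGAAAUacuuucauca

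The Actr2 stretches lie on the minus strand at chr11:20063307-20063333, chr11:20063191-20063217 and chr11:20062654-20062680, all in exon 9 of 9. The matches within them start at bases 1366, 1482 and 2019 after the stop codon in a 3′ UTR of 2385 bases. The Arpc5 stretch lies on the plus strand at chr1:152775080-152775106 in exon 4 of 4. Its match starts at base 768 after the stop codon in a 3′ UTR of 1275 bases. Actr2 has the longest 3′ UTR of the members and 1.26 matches per kilobase, beside 0.494 per kilobase over the 12348 3′ UTRs of all expressed genes. At least 1 match occurred in 56.4% of the 1235 3′ UTRs in the length bin of Actr2 (1865 to 2516 bases, 1 of 10 equal bins), in 38.3% for the bin of Arpc5, and in 38.7% of all 3′ UTRs.

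Arpc5l, the other listed target, had no match in its 3′ UTR of 757 bases (chr2:39015121-39015877, plus strand, exon 4 of 4), where 24.1% of the 3′ UTRs in its length bin had 1 or more. Actr3 (1090 bases), Arpc4 (1672 bases) and Arpc1b (1840 bases) had no match either, and nor did the short 3′ UTRs of Arpc1a (346 bases), Arpc2 (414 bases) and Arpc3 (248 bases). Thus 1 of the 2 listed targets and 1 of the other 7 members held the letters of the consensus in the 3′ UTR of the principal transcript. A match is a stretch of letters and not a measured binding site, and the crosslinking reads were not analysed here.

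**Figure D1:**
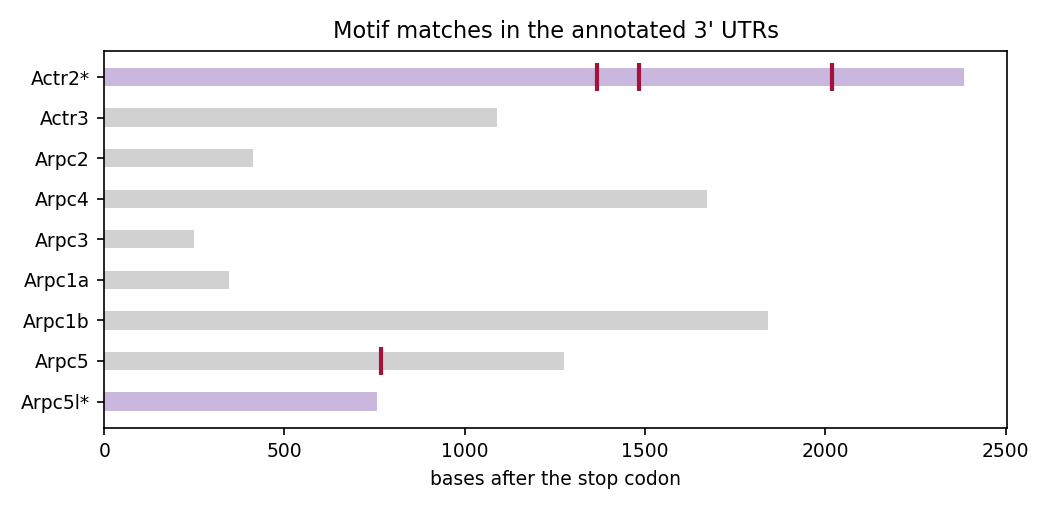
Map of the 3′ UTR of the principal transcript of each Arp2/3 subunit gene, with bases after the stop codon on the horizontal axis and 1 bar per gene (purple and * for members of the study's NANOS2 target list, grey for the others). Dark red ticks mark consensus matches, of which 3 lie in Actr2, at 1366, 1482 and 2019 bases, and 1 in Arpc5, at 768 bases.

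The mRNA levels of the subunits spread over a 59.6-fold range in TAG/+ and a 68.4-fold range in TAG/TAG, although each complex takes up 1 copy of each kind of subunit. All members but Actr2 lay above the median of all genes, which was 10.2 FPKM in TAG/+ and 10.5 FPKM in TAG/TAG. The median member had 55.3 FPKM in TAG/+ and 53.4 FPKM in TAG/TAG. In FPKM the order from highest to lowest was the same in both lines: Arpc3, Arpc1a, Arpc2, Actr3, Arpc4, Arpc1b, Arpc5, Arpc5l and Actr2. The 2 listed targets therefore closed the order in each line. The study scored targets by crosslinked reads relative to mRNA level, so a low FPKM is part of how they were chosen, and their place in the order is a description.

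Within the actin-like pair the levels were far apart. Actr2 (ENSMUSG00000020152.7, chr11:20062304-20112913, minus strand) had 9.76 FPKM in TAG/+ and 9.69 FPKM in TAG/TAG, from 219 and 234 reads, above 49.2% and 48.4% of all genes. Actr3 (ENSMUSG00000026341.16, chr1:125392905-125435727, minus strand) had 132 FPKM in TAG/+ and 98.6 FPKM in TAG/TAG, from 1618 and 1301 reads, above 93.1% and 90.5% of genes. The partner ARP3 thus had 13.5 times the mRNA level of ARP2 in TAG/+ and 10.2 times in TAG/TAG. Calculated with the length of the principal transcript in place of the mean length of all annotated transcripts, which the FPKM values use, the ratio was 10.5 and 7.90. Of the 50-base stretches of its exons, 77.2% were unique in the genome for Actr3, the lowest share of the members, and 89.0% for Actr2, so part of their reads could be shared with copies elsewhere.

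Actr3b encodes a second form of ARP3 and is not in the list of 9. It had 8.31 FPKM in TAG/+ and 5.58 FPKM in TAG/TAG, so Actr3 was 15.9 and 17.7 times as high in the 2 lines and made up 94.1% and 94.6% of their summed FPKM.

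In the structural core, Arpc2 (ENSMUSG00000006304.14, chr1:74236084-74268209, plus strand) had 251 FPKM in TAG/+ and 196 FPKM in TAG/TAG. Arpc4 (ENSMUSG00000079426.13, chr6:113378115-113390448, plus strand) had 55.3 and 53.4 FPKM. Both members of the core were lower in TAG/TAG, Arpc4 by less than the counting error given below. Arpc3 (ENSMUSG00000029465.14, chr5:122391878-122414184, plus strand) was the highest member, with 582 FPKM in TAG/+ and 663 FPKM in TAG/TAG, above 98.9% and 99.1% of all genes.

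The alternative forms of the WD-repeat subunit are neighbours on chromosome 5. Arpc1a (ENSMUSG00000029621.14, chr5:145083830-145108761, plus strand) had 253 FPKM in TAG/+ and 288 FPKM in TAG/TAG. Arpc1b (ENSMUSG00000029622.16, chr5:145114215-145130705, plus strand) had 53.5 and 47.0 FPKM. Arpc1a was the major form in both lines, with 82.6% of the summed FPKM of the pair in TAG/+ and 85.9% in TAG/TAG. On the opposite strand, Arpc1a overlaps Kpna7, Arpc1b overlaps Pdap1 and Arpc5l overlaps Rpl35. On the same strand, Arpc3 overlaps Gm42829, Arpc4 overlaps Ttll3 and Arpc5l overlaps Wdr38, so the assignment of some reads of these members is uncertain.

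The alternative forms of the smallest subunit were closer to each other. Arpc5 (ENSMUSG00000008475.13, chr1:152766542-152775597, plus strand) had 35.8 FPKM in TAG/+ and 27.1 FPKM in TAG/TAG. Arpc5l (ENSMUSG00000026755.14, chr2:39005348-39015877, plus strand) had 17.9 and 18.7 FPKM, from 281 and 316 reads. Arpc5 held 66.7% of the summed FPKM of the pair in TAG/+ and 59.2% in TAG/TAG. With the length of the principal transcript Arpc5 was 1.43 times Arpc5l in TAG/+ and 1.03 times in TAG/TAG, so which form is more abundant in TAG/TAG rests on the length chosen. With those lengths Arpc1b also lay below Arpc5l in both lines (16.6 beside 19.2 in TAG/+, and 14.6 beside 20.1 in TAG/TAG, on the FPKM scale), while Actr2 was still the lowest member. Arpc2 then lay above Arpc1a in TAG/+ (195 beside 144) and below it in TAG/TAG (152 beside 164), so the order was no longer the same in both lines.

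**Figure D2:**
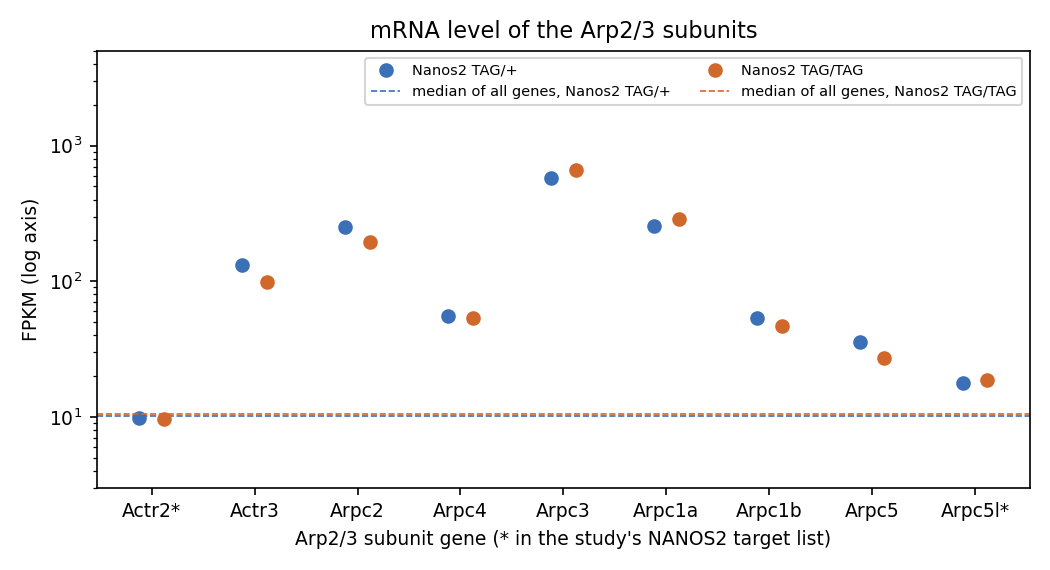
mRNA level of each Arp2/3 subunit gene in FPKM on a log axis, with 1 point per line (blue Nanos2 TAG/+, orange Nanos2 TAG/TAG, 1 library each) and dashed lines at the median of all genes in each line; * marks the study's NANOS2 targets. Arpc3 is highest (582 and 663 FPKM), and Actr2 (9.76 and 9.69 FPKM) lies just under the median of all genes in both lines.

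Between the lines the subunits differed by less than 1.5-fold in level. None of the 9 members was 1.5-fold or more higher in TAG/TAG, beside 22.8% of all genes, and none was 1.5-fold or more lower, beside 19.4% of all genes. The median size of the log2 FPKM ratio was 0.18 over the members and 0.47 over all genes. The least-read member had 219 reads, and over the 6152 genes that reached this number in each library the median size was 0.29. The share of those 6152 genes past 1.5-fold is not given here. The count of members past 1.5-fold therefore has no background of like read number. The summed FPKM of the 9 members was 1390.2 in TAG/+ and 1400.5 in TAG/TAG. Read counts were recovered from the FPKM values, and each fold below carries a 95% interval that covers the counting error of the 2 libraries only.

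Actr2 and Arpc5l, the listed targets, were level between the lines within counting error. The fold of TAG/TAG over TAG/+ was 0.993 for Actr2, with an interval of 0.822 to 1.20. For Arpc5l it was 1.05, with an interval of 0.887 to 1.23. These are the widest intervals of the 9 on the log scale, and Actr2 and Arpc5l are the members with the fewest reads.

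Actr3, Arpc2 and Arpc5 were lower in TAG/TAG by more than counting error. The fold was 0.747 for Actr3 (interval 0.694 to 0.804), 0.779 for Arpc2 (0.739 to 0.821) and 0.757 for Arpc5 (0.669 to 0.857). These 3 genes are the 3 members on chromosome 1, whose 465 genes with at least 5 FPKM in both lines had a median log2 ratio of −0.11 (quartiles −0.40 and 0.20). The log2 ratios of the 3 members, −0.42, −0.36 and −0.40, lay near the lower quartile of that chromosome, and the part of the chromosome in these ratios was not tested.

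Arpc1a and Arpc3 were higher in TAG/TAG by more than counting error, and Arpc1b was lower. The fold was 1.14 for Arpc1a (interval 1.08 to 1.20), 1.14 for Arpc3 (1.10 to 1.19) and 0.880 for Arpc1b (0.780 to 0.992). These are the 3 members on chromosome 5, whose 596 genes with at least 5 FPKM in both lines had a median log2 ratio of −0.02. The fold of Arpc4 was 0.967, with an interval of 0.875 to 1.07. In all, 6 of the 9 intervals excluded 1. The share of all genes whose interval excludes 1 was not computed, so this count has no background to be read against. By FPKM, 3 members were higher and 6 were lower in TAG/TAG. Actr2, the closest to level, changed side to 0.01 on the log2 scale when reads were scaled to the library total, which gave 4 higher and 5 lower.

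The 8 members with a half-life were all longer-lived than the median transcript in both lines, beside 39.8% of all transcripts. The median of all transcripts was 224 min in TAG/+ (quartiles 162 and 289 min) and 226 min in TAG/TAG (quartiles 159 and 299.8 min). The median of the 8 members was 309 min in TAG/+ and 354 min in TAG/TAG. In each line 5 of the 8 lay above the upper quartile. Transcripts of high level had longer half-lives in general, with a Spearman correlation across the 5152 genes with both readouts of 0.51 in TAG/+ and 0.45 in TAG/TAG. Over the 8 members it was 0.52 and 0.19, which describes 8 genes of the same libraries. All genes with both readouts were also split into 10 equal bins of mean FPKM. In both lines 6 of the 8 members were above the median half-life of their bin, while Arpc2 was below it in both and Actr3 in TAG/TAG. The share of all genes above their own bin median in both lines is not given here, so this count has no background.

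Of the actin-like pair only Actr3 had a half-life, 306 min in TAG/+ and 271 min in TAG/TAG, longer than 78.8% and 67.3% of all transcripts. Within its bin of FPKM it was longer than 66.4% and 46.2%. Actr2 was not among the measured transcripts, although 60.5% of the 6510 genes with at least its FPKM in both lines were, so the half-life of this listed target cannot be compared here.

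The core subunits were among the shorter-lived members. Arpc4 was the shortest in TAG/+ and Actr3, outside the core, in TAG/TAG. Arpc4 had 245 min in TAG/+ and 288 min in TAG/TAG, longer than 59.1% and 72.0% of transcripts. Among transcripts of like FPKM Arpc4 was longer than 53.6% and 68.5%. Arpc2 had 278 and 297 min, but among transcripts of like FPKM it was longer than only 27.9% and 32.9%. Arpc3 had 492 and 429.6 min, longer than 94.8% and 89.3% of all transcripts.

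Among the alternative forms, Arpc1a had 454 min in TAG/+ and 474 min in TAG/TAG. Arpc1b had 312 and 444 min, the largest difference between the lines of any member. Arpc1a was thus 1.46 times as long-lived as Arpc1b in TAG/+ and 1.07 times in TAG/TAG. Arpc5 had 372 and 358 min, longer than 88.1% and 83.7% of transcripts.

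Arpc5l, the only listed target with a half-life, had 276 min in TAG/+ and 350.0 min in TAG/TAG. It was longer-lived than 70.8% and 82.8% of all transcripts, and than 81.2% and 88.7% of transcripts of like FPKM. Counted from the shortest, it was number 2 of the 8 measured members in TAG/+ and number 4 of 8 in TAG/TAG. The other 7 measured members had a median of 312 min in TAG/+ and 358 min in TAG/TAG, so Arpc5l lay 35.6 min below it in TAG/+ and 7.83 min below it in TAG/TAG. In both lines its half-life was inside the range of the other 7. Its isoform partner Arpc5 was 1.35 times as long-lived in TAG/+ and 1.02 times in TAG/TAG.

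**Figure D3:**
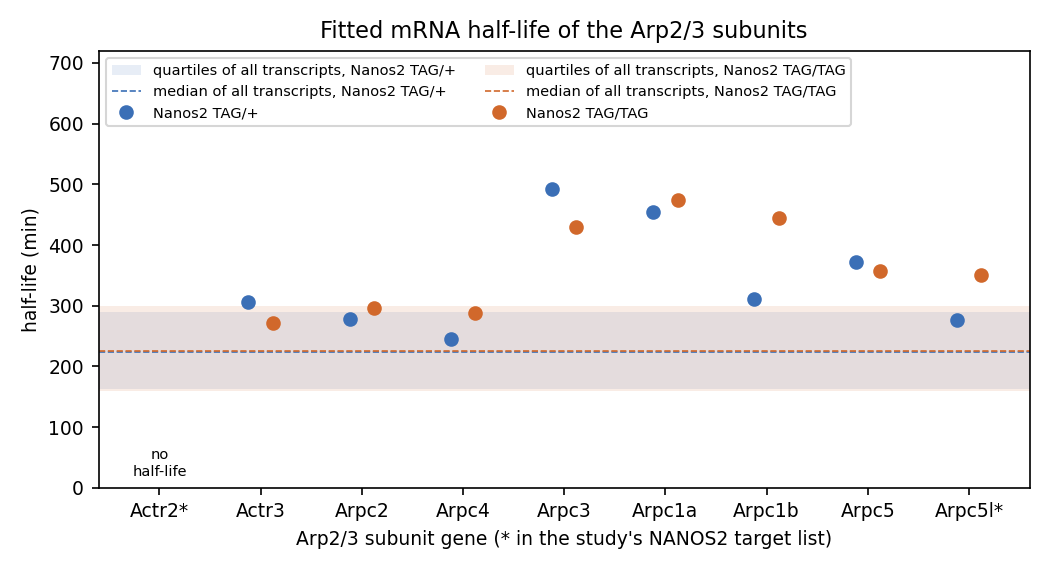
Fitted half-life in minutes of each Arp2/3 subunit mRNA, with 1 point per line (blue Nanos2 TAG/+, orange Nanos2 TAG/TAG), dashed lines at the median and shaded bands between the quartiles of all transcripts in each line; * marks the study's NANOS2 targets and Actr2 has no half-life. All 8 measured members lie above the medians of 224 and 226 min, and Arpc5l (276 and 350.0 min) lies within the range of the other members.

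The half-lives of the measured members differed by less than 1.5-fold between the lines. None of the 8 members was 1.5-fold or more longer in TAG/TAG, beside 10% of all transcripts, and none was 1.5-fold or more shorter, beside 10.7%. With shares this small, 0 of 8 is near the background and does not set the members apart. The median size of the log2 half-life ratio was 0.18 over the members and 0.27 over all transcripts, and the median ratio of all transcripts was 0.04 on the log2 scale. The half-life was longer in TAG/TAG for 5 members, with log2 ratios of 0.51 for Arpc1b, 0.34 for Arpc5l, 0.23 for Arpc4, 0.09 for Arpc2 and 0.06 for Arpc1a. It was shorter for 3 members, with log2 ratios of −0.19 for Arpc3, −0.17 for Actr3 and −0.06 for Arpc5.

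Level and half-life differed in the same direction for some members and in opposite directions for others. For 4 of the 8 members, Arpc1b, Arpc2, Arpc3 and Arpc4, FPKM and half-life differed between the lines in opposite directions. The FPKM difference of Arpc4 was within counting error. The share of all genes with opposite directions is not given here, so this count has no background to be read against. Arpc1b, whose half-life was 133 min longer in TAG/TAG, had a lower FPKM there. Arpc5l was longer-lived in TAG/TAG by 73.9 min, and its FPKM was level within counting error.

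**Figure D4:**
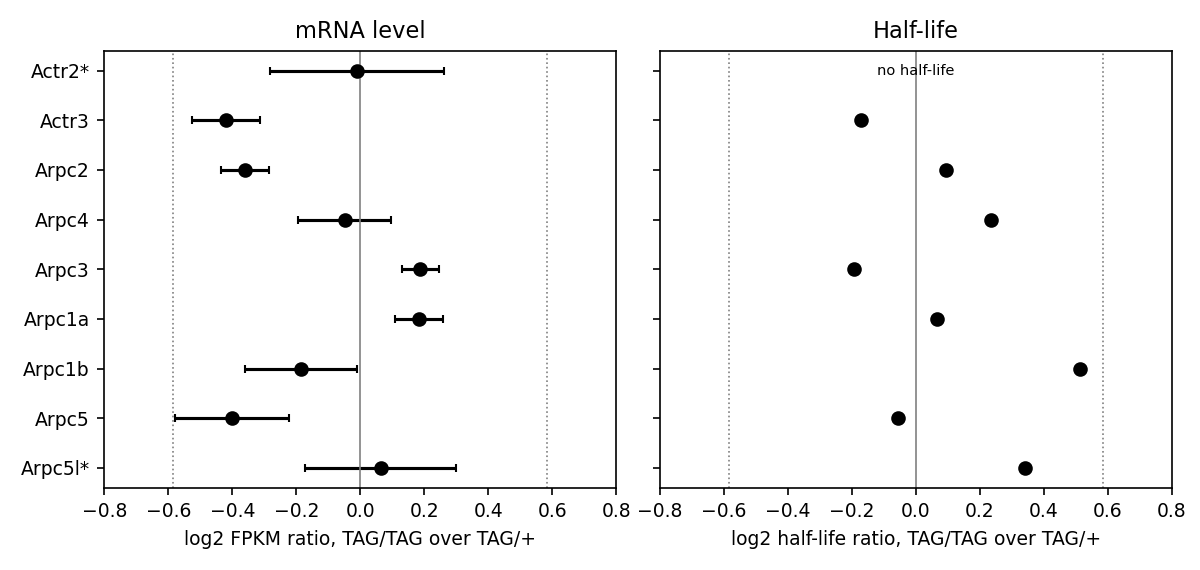
Ratio of Nanos2 TAG/TAG over Nanos2 TAG/+ on the log2 scale for each Arp2/3 subunit gene, on the left for mRNA level with 95% intervals of counting error and on the right for half-life, which has no error; dotted lines mark 1.5-fold and * marks the study's NANOS2 targets. No point passes 1.5-fold in either panel. Of the 9 intervals of the level 6 exclude 0, and the share of all genes with such an interval was not computed.

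**Figure D5:**
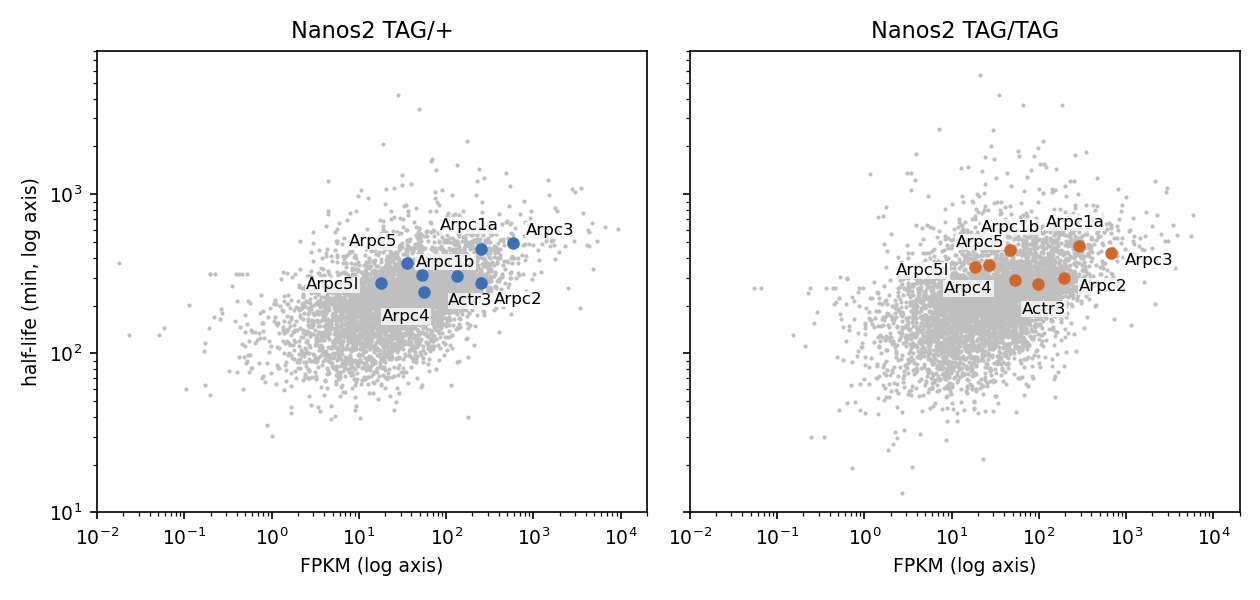
FPKM (log axis) against half-life in minutes (log axis) for the 5152 genes with both readouts, with 1 panel per line, grey for all genes and colour for the 8 Arp2/3 members; genes at 0 FPKM cannot be drawn on the log axis. All 8 members lie above the median half-life of all transcripts in both lines, and Arpc2 lies below the median of genes of like FPKM in both.

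The 5 genes whose pair of levels and pair of half-lives were closest to the median profile of the members were Ap2b1, Fbxo31, Rars, Nsun2 and Ercc3. Likeness was the distance over the 4 values, each on the log2 scale and divided by its SD over the 5152 genes. Ap2b1, an adaptin of clathrin-coated vesicles, was nearest at 0.0744 SD, with 78.0 and 75.8 FPKM and half-lives of 309 and 357 min in TAG/+ and TAG/TAG. The fifth, Ercc3, was at 0.137 SD. The members lay from 0.603 SD (Actr3) to 2.37 SD (Arpc3) from their own median profile, with 250 and 3233 of the genes closer to it.

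Several regulators of the complex passed 1.5-fold between the lines, read against the same 22.8% higher and 19.4% lower over all genes. Of 8 nucleation-promoting factors with FPKM, Jmy was lower in TAG/TAG (15.8 and 8.89 FPKM in TAG/+ and TAG/TAG) and Wasl, which encodes N-WASP, was higher (16.6 and 26.8 FPKM). Jmy and Cttn are in the study's target list, as is Nckap1 of the WAVE regulatory complex. None of the 6 WAVE complex genes with FPKM passed 1.5-fold in either direction.

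Of 7 genes for inhibitors and debranching factors, 1 was 1.5-fold or more higher and 4 were 1.5-fold or more lower in TAG/TAG. The median log2 ratio was −0.84 beside 0.01 over all genes. The summed FPKM of the 7 was not lower, at 275 in TAG/+ and 282 in TAG/TAG, and most of it came from Coro1c. Arpin, an inhibitor of the complex, had 1.73 FPKM in TAG/+ and 0.150 FPKM in TAG/TAG, from 43 and 4 reads. The coronin genes Coro2b and Coro2a went opposite ways, with 5.02 and 1.37 FPKM for Coro2b and 22.4 and 48.7 FPKM for Coro2a. Coro2b had only 68 and 20 reads. Gmfb, which encodes the branch-removing glia maturation factor beta, had 29.7 and 12.9 FPKM. Beyond the 4 genes that the naming rule allows, others were named after their values were seen. Pick1, the other gene past 1.5-fold lower, had 18.1 and 10.1 FPKM. Coro1c (194 and 205 FPKM) and Coro1a (3.54 and 4.69 FPKM) were higher in TAG/TAG by less than 1.5-fold. Coro1b, which has no FPKM, had a half-life of 394 min in TAG/+ and 176 min in TAG/TAG.

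Among 14 genes of actin and its turnover, 3 were 1.5-fold or more higher in TAG/TAG, beside 22.8% of all genes, and none was 1.5-fold or more lower, beside 19.4%. The 3 were Cap2 (3.95 and 10.7 FPKM), Pfn1 (389 and 629.5 FPKM) and Twf2 (34.7 and 55.1 FPKM), which encode proteins that bind actin monomers, and Capza1, for a capping protein subunit, had a half-life of 419 min in TAG/+ and 277 min in TAG/TAG. Of the 11 measured genes, 9 had half-lives above the median of all transcripts in both lines, beside 8 of 8 in the complex and 39.8% of all transcripts.

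Other actin-related proteins are relatives of ARP2 and ARP3 that work in dynactin and in chromatin complexes. Of 6 such genes with FPKM, Actr10, of dynactin, was the only one past 1.5-fold, at 48.5 FPKM in TAG/+ and 20.3 FPKM in TAG/TAG. Actr5, of the INO80 chromatin complex, had a half-life of 123 min in TAG/+ and 274 min in TAG/TAG, while 4 of the 5 measured genes were above the median in both lines.

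Some markers of the cells in the cultures also passed 1.5-fold between the libraries. The fibroblast list, for the feeder cells, had 13 of 15 genes with FPKM and none at 0. Its summed FPKM was 371 in TAG/+ and 486 in TAG/TAG. None of the 13 was 1.5-fold or more lower in TAG/TAG, beside 19.4% of all genes. Of the 13, 6 were 1.5-fold or more higher, beside 22.8% of all genes. Among them Pdgfrb had 0.660 and 6.75 FPKM, Col6a1 1.24 and 2.98 FPKM, Dcn 4.44 and 10.2 FPKM, and Vim 30.3 and 67.9 FPKM. Undifferentiated spermatogonia markers summed to 862 FPKM in TAG/+ and 1077.9 FPKM in TAG/TAG over 10 of 12 genes with none at 0. Of these 10, 3 (Etv5, Ret and Gfra1) were past 1.5-fold higher, beside 22.8% of all genes. The median log2 ratio of the 10 was −0.10, and 6 of them (Nanos2, Zbtb16, Id4, Sall4, Lin28a and Dnd1) had the lower value in TAG/TAG. Differentiating markers summed to 339 and 186 FPKM over 6 of 6 genes with none at 0. Of these 6, 3 (Sycp3, Rec8 and Sohlh1) were past 1.5-fold lower, beside 19.4% of all genes. Most of each sum was Rec8, with 267 FPKM in TAG/+ and 133 FPKM in TAG/TAG. Kit and Stra8 were lower by less than 1.5-fold, and Dmrtb1 had the higher value in TAG/TAG (3.67 and 4.86 FPKM). The Arp2/3 genes are used by all of these cells, and the part of cell composition in the members' values was not tested. Nanos2 itself had 27.5 FPKM in TAG/+ and 23.8 FPKM in TAG/TAG.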

How the data were processed

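RNA-seq values were deposited by the authors as FPKM per gene for 1 library per line, and half-lives as 1 value in minutes per transcript and line. The submitters' processing notes name kallisto and DESeq2 for RNA-seq without a role, and the genome build of that step is not given in the sources used here. Half-lives were fitted by the authors with the R function nls to conversion rates from SlamDunk. The FPKM columns GG and Gp were read as TAG/TAG and TAG/+. The half-life sets were assigned to lines by their names, while the labels call them CTL and EXP. Crosslinking signal was not analysed here.

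Whole reads were recovered in 100% of 13884 genes with an annotated length (GENCODE M21, mean over transcripts, tolerance 0.02 reads). They summed to 10977831 in TAG/+ and 11656606 in TAG/TAG. The FPKM values are scaled to depths of 10908790 and 11738620 reads, which are not these sums. How those depths were set is not stated. Recovery was tested on simulated data. No unit of replication existed within a line, so no test was run. Ratios are on the log2(FPKM + 0.1) scale, folds have exact conditional binomial (Clopper-Pearson) intervals at 95%, and reads had no molecular identifiers, so these cover counting error only. A gene counted as higher or lower past 1.5-fold. For the 3′ UTR the APPRIS principal coding transcript was used. Of the other lists, genes past 1.5-fold in FPKM or half-life with at least 1 FPKM in 1 line are named, at most the 4 largest per list. Further inhibitor and marker genes were named after their values were seen. The result of 1 list is not reported here. The members and lists were chosen with earlier results of these data known. Alternatives were another pseudocount, fold, scaling, FPKM minimum, length, and each line alone. Python 3.11.15, numpy 2.4.6, pandas 2.3.3, scipy 1.17.1 and matplotlib 3.10.9 were used.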

Additional observations from a re-analysis of the deposited data

How the results depend on the processing

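No member passed 1.5-fold in FPKM or half-life, in either direction, with a pseudocount of 1, values centred on the median of all genes or transcripts, or recovered reads scaled to the library total. A minimum of 1 FPKM, a half-life limit of 540 min and a 2-fold limit were also run, but by construction could not raise these counts from 0. Under the library total scaling the log2 FPKM ratio of Actr2 went from −0.01 to 0.01. The count of members above the median half-life in both lines was 8 under each alternative except against transcripts in the same of 10 bins of mean FPKM, where it was 6. No share of all genes is given beside the count by bins. The share of transcripts with a shorter half-life than Arpc5l, 79.4% on the mean of both lines, was 70.8% in TAG/+ alone. The half-life of Arpc5l minus the median of the other measured members, −51.8 min on the mean of both lines, was −35.6 min in TAG/+ alone and −7.83 min in TAG/TAG alone. The first value lies outside the other 2 because half-lives were averaged per gene before the median was taken. That median was Arpc5 (365 min, beside 313 min for Arpc5l), while it was Arpc1b (312 min) in TAG/+ and Arpc5 (358 min) in TAG/TAG. Why Arpc5l differed between the lines was not tested. With the length of the principal transcript, an alternative chosen after the data were seen, the highest member was 83.6 times the lowest in TAG/+ and 96.0 times in TAG/TAG. No paired analysis was possible because each line had 1 expression value and 1 half-life per gene.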
